A study of Mus musculus with 4 samples.

Results

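The 24 h comparison set 1 array of E0771 cells given IL-26 against 1 array of E0771 cells given medium alone, called vehicle in the labels. E0771 is a mouse breast carcinoma cell line, grown here in medium with fetal bovine serum, and the IL-26 was a recombinant human dimer at 30 ng/ml. The series holds 4 arrays, 1 for each treatment at 6 h and at 24 h, so no group had a replicate and every value below is an effect size with no test and no error. Each difference compares 2 hybridisations as much as 2 treatments. The labels do not say whether the cells of the arrays came from 1 culture. Of 19316 genes with a named probe, 8107 had a probe whose spot reached at least 2 times the mean of the blank spots on both 24 h arrays. Those 8107 genes are the ones counted.

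IL-26 is a cytokine of the IL-10 family, made by T helper cells among others, that is absent from the mouse genome. Its described receptor joins the chains IL-20RA and IL-10RB and signals through STAT proteins, and the study addressed EphA3, an ephrin receptor tyrosine kinase, as a further receptor. Cytokines of this family are known for inducing STAT3 targets, and ER stress (protein folding stress) acts through PERK and the transcription factors ATF4, DDIT3 (CHOP) and ATF3.

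The chips carried oligonucleotide probes read in the Cy5 channel alone, and levels are log2 intensities after blank-spot background correction and quantile normalization over the 4 arrays. The median over gene spots on the 24 h vehicle array was 84.4 and on the 24 h IL-26 array it was 78.0, and a spot counted as measured from 113.0 and 103.9 upwards. None of 96 negative control spots and none of 3454 positions without a probe reached these limits on both arrays, while 48 of 48 positive controls did. Just outside the limit was Cxcl2, a neutrophil chemokine, whose spots were 105.9 and 105.7, and just inside it was Cd14, at 118.5 and 109.2.

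More mesenchymal than epithelial marker genes were measured in these cells. Of 8 mesenchymal markers 5 were measured, led by Vim, the intermediate filament vimentin, with spots of 15945 on the vehicle array and 15519 on the IL-26 array. Fn1, Cdh2 and Col1a1 stayed under the limit, as did 1 of the 2 Col3a1 probes. Of 8 epithelial markers only Krt8 was measured, at 1747 and 1499, and Epcam and Cdh1 stayed under the limit. None of 6 endothelial markers was measured. Among leukocyte markers Cd14 and Cd68 were measured, and the pan-leukocyte Ptprc was not, at 60.6 and 55.8. Esr1, Pgr and Erbb2, the receptors whose lack defines triple-negative breast cancer, were all under the limit on both arrays.

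Few genes differed between the 2 arrays at 24 h, and by little. With IL-26, 55 genes (0.678% of 8107) were at least 25% higher, a log2 difference of 0.32 or more, and 182 (2.24%) were at least 20% lower, a difference of -0.32 or less. Genes beyond either bound are called higher or lower below. At 1.5-fold 1 gene was higher (0.0123%) and 2 were lower (0.0247%), and at 2-fold, the cut used in the study's methods, 0 were higher and 1 was lower (0.0123%). The study's deposited values had the blank level subtracted and were scaled to a common median. They carried no offset, a constant added here to every spot before the logarithm. The counts here also leave out genes under the limit. For these reasons the 2-fold counts here are not comparable with the study's own. The part of each difference in the 2-fold counts was not tested. The SD of the log2 difference over the 8107 genes was 0.13, and the middle 98% of genes lay between -0.39 and 0.29. The IL-26 difference at 6 h, from 2 other arrays, had the same SD of 0.13, with 1.13% of genes called higher and 0.555% lower. Time in culture gave larger differences: between 6 h and 24 h in vehicle the SD was 0.38, with 1344 genes (16.6%) called higher and 1183 (14.6%) lower. Calls were more frequent among bright genes: of the 2027 genes with the highest mean level 1.13% were higher and 3.5% lower, and of the 2027 with the lowest 0.0987% and 0.641%, with SDs of 0.15 and 0.10. The offset draws differences towards 0, most for dim genes, and the trend with level was not tested without it. The time difference covers genes picked by their 24 h spots alone. The 24 h vehicle array enters both the time difference and the IL-26 difference at 24 h.

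The counts depended on how background and scale were handled. With median scaling in place of quantile normalization 22 genes were called higher and 299 lower. The local background around a spot was uneven, at over 1000 for 922 spots of the vehicle array and 586 of the IL-26 array at 24 h, and correcting each spot for it, in place of the blank-spot level, gave 2049 and 2270 calls. Under all 9 combinations of background and scale that were run, 8 genes were called higher and 52 lower. The 8 were Mta2, Sqstm1, Serinc1, Mrpl9, Actb, Mlh3, Stmn1, a microtubule-destabilising protein (0.41), and Glipr2 (0.37). Being past the bound does not mean that their values were alike: with the local background Mta2 was at 0.52, Actb at 4.48 and Mrpl9 at 1.99, and the other 5 lay between 0.71 and 1.05. The vehicle spot of Actb, at 3242, lay below its local background of 3317. Among the 52 were Gm5258, Vapb, Id1, Malat1, Brf1 and Ccdc86, of the 12 lowest genes, as well as Cd47, the don't-eat-me ligand of tumour cells (-0.42), Tspo, a mitochondrial outer membrane protein (-0.48), and Max, the partner of Myc (-0.48).

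**Figure D1:**
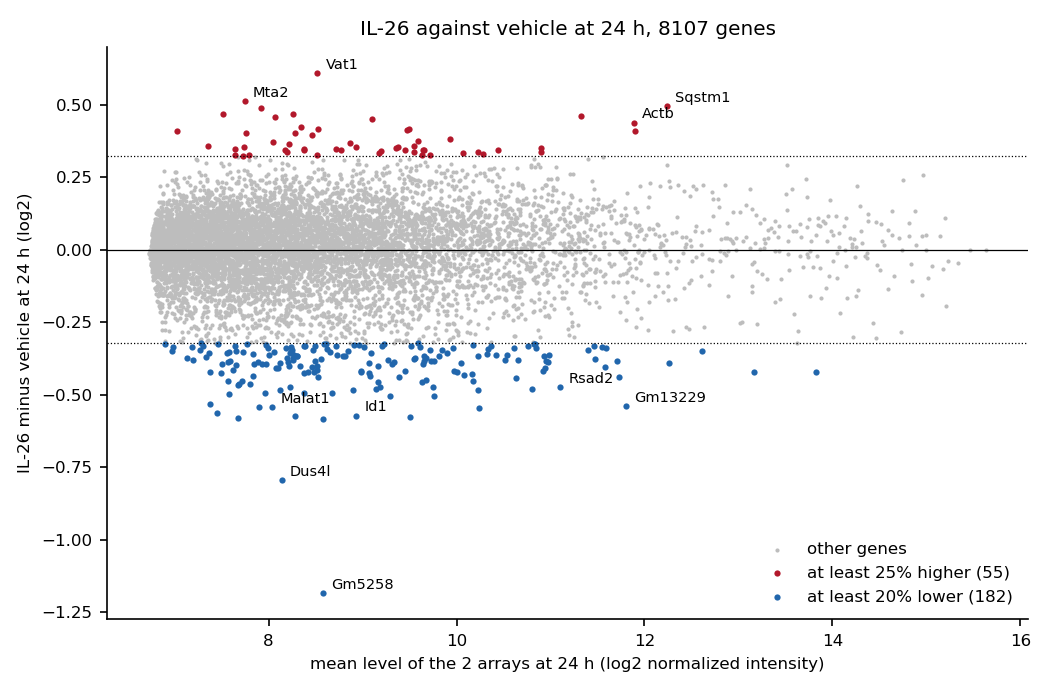
Log2 difference between IL-26 and vehicle at 24 h (y axis) against the mean level of the 2 arrays (x axis, log2 normalized intensity) for 8107 genes, with dotted lines at 0.32 and -0.32. The 55 higher genes are red and the 182 lower genes blue, and Gm5258 and Dus4l lie farthest from the rest.

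Among the genes higher with IL-26 were proteins of very different roles. The largest difference was that of Vat1, a vesicle amine transport protein, whose spot read 309 (vehicle) and 436 (IL-26) at 24 h, against 330 and 233 at 6 h. Its log2 difference was 0.61 at the later time and -0.38 at the earlier one. The level with IL-26 at 24 h was thus the highest of the 4 arrays and that at 6 h the lowest, but with the local background the 24 h difference was -0.21. Sqstm1 encodes p62, the autophagy receptor that also holds KEAP1, and was the brightest of the 12 highest genes. Its log2 levels were 11.76 and 11.92 at 6 h and 11.99 and 12.49 at 24 h, vehicle first, a difference of 0.17 at 6 h and 0.50 at 24 h. Mta2, a subunit of the NuRD histone deacetylase complex, had spots of 189 (vehicle) and 251 (IL-26) at 24 h and of 197 and 191 at 6 h. Only the 24 h IL-26 array was high for Mta2.

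Actin and mitochondrial genes were also among the 12 highest. Actb, cytoplasmic beta-actin, differed by 0.44 at 24 h (11.67 to 12.11) and by 0.25 at 6 h, the largest 6 h value of the 12. Lcp1, the actin-bundling protein L-plastin, known mainly from leukocytes, differed by 0.47 at 24 h and -0.10 at 6 h, with spots of 163 and 210 at 24 h. Tomm70a, a receptor of the mitochondrial outer membrane import machinery, differed by 0.49 at 24 h and -0.25 at 6 h. Mrpl9, a protein of the large mitochondrial ribosomal subunit, was at 8.88 with vehicle and 9.33 with IL-26. The others were Smyd5 (0.47), a SET and MYND domain methyltransferase, Serinc1 (0.46), a membrane protein linked to serine incorporation into lipids, Ccdc91 (0.46), Spsb3 (0.42) and Mlh3 (0.42), a mismatch repair protein. With the local background Tomm70a (0.05), Ccdc91 (0.02), Spsb3 (0.03) and Smyd5 (0.21) were no longer called, nor was Lcp1, just under the bound, and as the mean over both its probes, 1 of them dim, Mlh3 was at 0.24. The 6 h differences of these 12 genes lay between -0.38 and 0.25.

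The lower genes were more numerous and included non-coding transcripts. Gm5258 was the only gene past 2-fold: its spots were 1050 and 900 at 6 h and 594 and 248 at 24 h, vehicle first, which gives -1.18 on the log2 scale at 24 h against -0.09 at the earlier time. Gm5258 and Gm13229 (-0.54) are annotated as pseudogenes and Npm3-ps1 (-0.58) as a transcribed pseudogene, so which transcript their probes bound is uncertain. Malat1, a nuclear long non-coding RNA, was the only one of the 12 lowest with 2 probes used. Its 2 probes differed by -0.90 and -0.18, a mean of -0.54, and the 6 h difference was 0.19.

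Dus4l, a tRNA dihydrouridine synthase, had log2 levels of 8.53 and 8.34 at 6 h and 8.54 and 7.74 at 24 h, so that 3 arrays lay together and the 24 h IL-26 array was low. Id1 encodes an inhibitor of basic helix-loop-helix transcription factors and is a BMP target. Both 6 h arrays stood close together at log2 levels of 8.34 (vehicle) and 8.30 (IL-26), and the 24 h arrays at 9.22 and 8.64, a 24 h difference of -0.57. The other Id genes measured stood near 0, with Id2 at -0.10 and Id3 at -0.06. Vapb, an ER membrane protein of contact sites, was at -0.57, and Brf1, a subunit of the RNA polymerase III factor TFIIIB, at -0.54. Eml2 (-0.58), Lmbr1l (-0.53), Ccdc86 (-0.51) and Lbhd1 (-0.50) completed the 12. With the local background Dus4l (-0.27), Eml2 (-0.04), Npm3-ps1 (-0.20), Gm13229 (-0.30), Lmbr1l (-0.25) and Lbhd1 (-0.23) were no longer called, and as the mean over both its probes Vapb was at -0.23. Jmy (-0.56), Gm16490 (-0.54) and the histone gene H3c11 (-0.58) were as low, but each had a probe next to a spot over 10000 (a bright neighbour) and is named only as such.

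**Figure D2:**
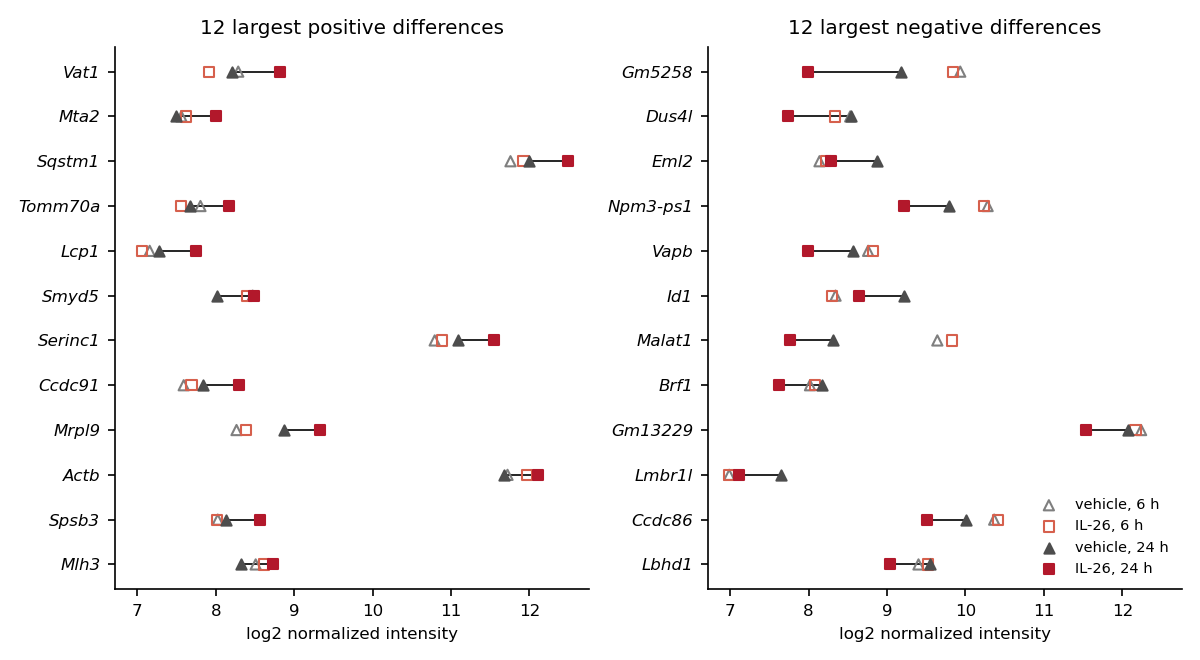
Log2 normalized intensity (x axis) of the 12 genes with the highest and the 12 with the lowest difference at 24 h, on each of the 4 arrays, with a line joining the 2 arrays at 24 h. Each symbol is 1 array, and for Vat1 the IL-26 arrays at 6 h and 24 h lie on opposite sides of the vehicle arrays.

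The differences followed the position of the probe on the array. The chip is laid out in 24 blocks, and the median 24 h difference per block ran from 0.09 in block 9 to -0.16 in block 24. Blocks 1 to 15 held 49 probes called higher and 33 lower of 5283, and blocks 16 to 24 held 9 higher and 156 lower of 3077; the split was drawn after the medians were seen. In block 24 alone 53 of 318 probes were lower and 0 higher. Of the 12 highest genes 11 lay in blocks 1 to 15, and of the 12 lowest 8 lay in blocks 16 to 24. With each block's median set to 0, 46 genes were higher and 110 lower, of which 29 and 98 were among the 55 and the 182. Gm5258 (-1.18), Dus4l (-0.82), Id1 (-0.57), Vat1 (0.58) and Mta2 (0.48) stayed past the bounds in this setting. Of the members of the 47 gene lists used below, 8 of the 11 called higher and 10 of the 21 called lower stayed called. The part of array position in the counts was otherwise not tested. At 6 h the block medians ran from -0.09 to 0.17.

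**Figure D3:**
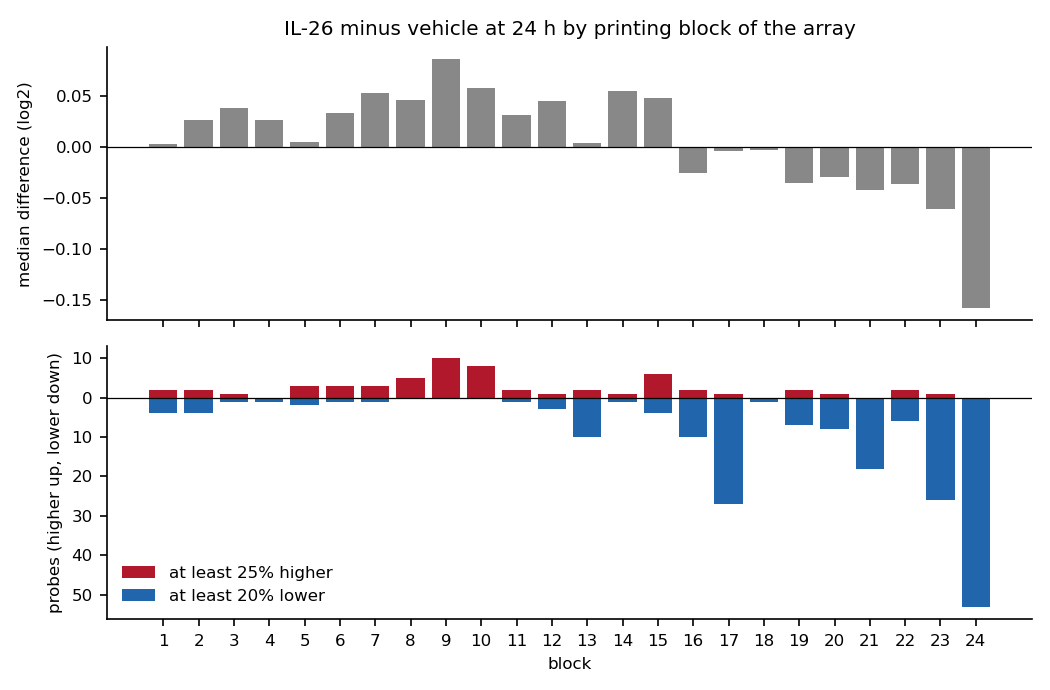
Median log2 difference between IL-26 and vehicle at 24 h over the probes of each of the 24 blocks (upper panel), and the number of probes called higher (up, red) or lower (down, blue) in each block (lower panel). Block 24 has the lowest median, -0.16, and 53 of the lower probes.

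Probes for the same gene seldom gave the same IL-26 difference. For 246 genes 2 or more probes were used, and across these genes the differences of the 2 probes had a Pearson r of 0.04 at 24 h, with the same sign in 129 (52.4%). In 11 of them a probe was past a bound, and in 0 were both past it in the same direction. For the time difference in vehicle the same probes gave a Pearson r of 0.66, the same sign in 177 (72%), and 31 genes with both probes past a bound the same way. Genes are not independent replicates here, and both probes share the RNA and the hybridisation.

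The receptor genes that bear on IL-26 signalling were under the limit or differed little. Il20ra was at the blank-spot level on every array, 56.7 and 52.4 at 24 h. Il10rb was measured, at 262 and 258 (log2 difference 0.07, with a bright neighbour). Epha3 was not well above the blank spots at 24 h, with spots of 89.3 with vehicle and 63.0 with IL-26, after 139 and 75.3 at 6 h, and its probe also lies next to a spot over 10000, so no fold is given. Of the Eph receptors 3 were measured, and all differed little: Epha2 -0.01, Ephb3 -0.06 and Ephb4 -0.04. Among interferon receptor chains Ifnar1 was at 0.09 and Ifngr2 at 0.14, and Egfr, the receptor whose inhibitors the study concerns, at 0.06.

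The PERK-ATF4-CHOP genes had no member called higher or lower with the blank-spot background. Of 15 measured, 10 were above 0 and 5 below, with a median of 0.03 beside 0.01 over all genes. Atf4, which drives amino acid and stress genes, stood at a log2 level of 11.94 (vehicle) and 12.17 (IL-26), a difference of 0.23, and its 6 h difference was 0.21. Ddit3 was at 10.56 and 10.55 (-0.00) and Atf3 at 8.65 and 8.63 (-0.02), with 6 h differences of 0.23 and 0.17. Correction for the local background put Atf4 at 0.72, Ddit3 at -0.71 and Atf3 at -0.35. In that setting 4 of the 15 were called higher and 5 lower, beside 25.3% and 28% of all genes. Both Ddit3 and Atf3 stood more than 1 log2 unit higher at 24 h than at 6 h on the vehicle arrays. In serine, one-carbon and asparagine synthesis, 11 of 13 genes were above 0 (median 0.07) and none was called, with Phgdh, the first enzyme of serine synthesis, at 0.28 and Mthfd2, a mitochondrial folate enzyme, at 0.26. Of 20 ER chaperones and ATF6-XBP1 targets (median 0.02), P4hb, a protein disulfide isomerase, was higher at 0.34 and Syvn1, the ubiquitin ligase of ER-associated degradation, lower at -0.39. Over all genes 0.678% were higher and 2.24% lower. With block medians set to 0 P4hb was at 0.30, no longer called, and Syvn1 at -0.45.

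Targets of the STAT3 and NF-kB pathways gave 1 call, and with block medians set to 0 a different 1 in its place. Of 16 measured STAT3 targets and SOCS genes 0 were called, and the median was -0.02. Socs3, the feedback inhibitor of the receptor complex, was at 0.02 and Mcl1, a survival protein, at 0.25. Pim1, a serine kinase, was at -0.31, and with block medians set to 0 it was at -0.35, called lower in that setting. Of 16 inflammatory and NF-kB genes 1, Nfkb2, was called lower, at -0.35, beside 2.24% of all genes. Its probe lies next to a spot over 10000, and with block medians set to 0 it was at -0.28. Cxcl1 was at -0.00. Il6 was below the limit (76.2 and 68.6), with a bright neighbour. In the PI3K-AKT list (14 genes, median 0.03) no gene was called, and Akt2 was at 0.30 and Akt1 at 0.20. In the JNK list (7 genes, median -0.08) Jun was at -0.19.

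The immediate-early and AP-1 genes, which cells switch on within minutes of a stimulus, were below 0 in 12 of 13 cases (median -0.09), yet 0 were called lower. The lowest were Jun (-0.19), Klf4 (-0.18) and Nr4a1 (-0.16), and Srf was the gene above 0, at 0.10. With block medians set to 0 the median was also -0.09. Of all 8107 genes 54.6% were above 0.

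Interferon-stimulated genes held 4 of the lower genes, Rsad2, Irgm1, Ifih1 and Ifi47, of 27 measured, beside 2.24% of all genes called lower, and 0 of the higher ones. The list median was -0.05, with 9 members above 0 and 18 below. Rsad2 (viperin) restricts viral replication, Irgm1 is an immunity-related GTPase, Ifih1 (MDA5) senses double-stranded RNA and Ifi47 is a further interferon-induced GTPase. The window from 250 bases before to 50 after the annotated start, from the RefSeq annotation of GRCm38.p6, held the letters GAAANNGAA on either strand, the repeated core of the interferon response element bound by STAT and IRF factors, for 13 of 22 measured list genes with a window (59.1%). Of all 6463 measured genes with a window 564 (8.73%) held it, and of all 32851 windows of the same length 8.56% did. Matches can overlap, as in Irgm1. Rsad2, Irgm1 and Ifih1 held it and Ifi47 did not, and the 3 windows are shown because these are the lower genes with a match. They lie on the minus strand at chr12:26456403-26456702 (Rsad2), chr11:48871371-48871670 (Irgm1) and chr2:62646206-62646505 (Ifih1), written 5′ to 3′ along the gene with the match in capitals:
Rsad2: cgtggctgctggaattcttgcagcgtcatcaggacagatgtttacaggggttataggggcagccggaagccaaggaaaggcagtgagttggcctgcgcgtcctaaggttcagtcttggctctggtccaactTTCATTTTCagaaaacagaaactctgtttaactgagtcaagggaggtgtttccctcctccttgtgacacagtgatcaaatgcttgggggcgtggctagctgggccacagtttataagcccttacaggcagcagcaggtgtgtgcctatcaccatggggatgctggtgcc
Irgm1: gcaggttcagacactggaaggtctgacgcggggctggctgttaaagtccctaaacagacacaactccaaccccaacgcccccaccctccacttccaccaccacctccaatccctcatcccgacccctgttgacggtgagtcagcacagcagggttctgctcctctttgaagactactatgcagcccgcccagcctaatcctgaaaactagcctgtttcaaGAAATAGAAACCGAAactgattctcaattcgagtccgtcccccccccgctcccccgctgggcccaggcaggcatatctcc
Ifih1: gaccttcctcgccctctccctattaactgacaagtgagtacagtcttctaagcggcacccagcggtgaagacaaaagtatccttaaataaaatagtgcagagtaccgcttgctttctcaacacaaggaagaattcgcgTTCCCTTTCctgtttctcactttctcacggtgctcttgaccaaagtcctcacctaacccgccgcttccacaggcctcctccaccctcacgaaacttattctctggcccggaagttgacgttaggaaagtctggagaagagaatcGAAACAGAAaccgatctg

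In Rsad2 the match lies ahead of the start on the opposite strand, in Irgm1 there are 2 overlapping copies close to it, and in Ifih1 there is 1 on either side of it, the first on the opposite strand. The 13 genes with a match had a median 24 h difference of -0.05 and the 9 without one also -0.05.

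All 27 measured interferon-stimulated genes, of 28 on the array, were higher at 24 h than at 6 h on the vehicle arrays, by 0.55 to 2.51 on the log2 scale. They had been admitted by their spots at 24 h alone, so a gene bright only at 6 h could not enter, and the count is no test of a rise. Of all genes 16.6% were called higher in that comparison. The lower values with IL-26 at 24 h stand on this larger level, and the 24 h vehicle array enters both differences. The log2 level of Rsad2 was 9.87 (vehicle) and 10.39 (IL-26) at the earlier time, then 11.34 and 10.86. The IL-26 array was thus the higher one at 6 h, by 0.52, and the lower one at 24 h, with a difference of -0.47. Irgm1 read 10.00 and 9.63 at 24 h, Ifih1 8.18 and 7.82, and Ifi47 8.79 and 8.45, and their 6 h differences were 0.15, 0.18 and 0.07. At 6 h the list median was 0.06. Rsad2, Irgm1 and Ifih1 all lie in block 24 and Ifi47 in block 19. With block medians set to 0 Rsad2 was at -0.31, Irgm1 at -0.21, Ifih1 at -0.20 and Ifi47 at -0.31, so that 0 of the 4 stayed called and the list held no call.

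Other genes of the interferon-stimulated list differed less, with 9 of the 27 above 0 and 18 below. Mx2 was at -0.30, Xaf1 at -0.23 and Isg15 at -0.09, and Usp18, which removes ISG15 from proteins, at 0.11 and Irf7 at 0.13. Of 13 MHC class I and immunoproteasome genes (median -0.04) 1, Psmb8, was lower, beside 2.24% of all genes. Psmb8, a catalytic subunit of the immunoproteasome, had log2 levels of 8.84 and 9.27 at 6 h and 9.85 and 9.46 at 24 h. Like Rsad2 it was higher with IL-26 at 6 h (0.43) and lower at 24 h (-0.38), and it lies in block 1. With the local background its 24 h difference was 0.12. B2m, the class I light chain, was at 0.06 and H2-K1 at -0.04.

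Genes of oxidative stress defence and protein turnover differed one by one rather than as groups. The calls below stand beside 0.678% of all genes called higher and 2.24% lower. The NRF2 target list (18 genes) had a median of 0.09 (0.04 with block medians set to 0), with Sqstm1 higher and Hmox1, the heme-degrading enzyme heme oxygenase 1, lower. Its log2 level was 10.92 (vehicle) and 10.66 (IL-26) at the earlier time, then 9.86 and 9.40, so that the IL-26 array was the lower one at both times, with differences of -0.26 and -0.46; with the local background the 24 h value was 0.87. The NRF2 targets Pgd (0.26), Taldo1 (0.22) and Prdx1 (0.21) were above 0 and not called. Of 25 autophagy and lysosome genes (median 0.05) Gabarapl1, an autophagosome protein, was higher at 0.34. It was the only call of that list, and with block medians set to 0 it was at 0.30, no longer called. Of 33 proteasome subunits Psmd14, the deubiquitinase of the lid, was lower at -0.38 (0.38 with the local background).

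Mitochondrial lists had medians slightly above that of all genes, 0.01, and the list medians were smaller with block medians set to 0. The 71 mitochondrial ribosomal proteins had a median of 0.05 with 2 higher, Mrpl9 (0.45) and Mrpl11 (0.40), and 3 lower, Mrpl20 (-0.48), Mrpl45 (-0.46) and Mrpl43 (-0.35), beside 0.678% and 2.24% of all genes. The 2 higher ones lie in blocks 9 and 5, and the 3 lower ones in blocks 24, 21 and 23, and with block medians set to 0 Mrpl43 was at -0.27, no longer called. Mrpl11 was at 0.31 with the local background, just under the bound. The 20 import genes had a median of 0.08 with Tomm70a higher, and the 32 oxidative phosphorylation subunits one of 0.06 with Sdhd, a membrane anchor of complex II, lower at -0.42 (-0.10 with the local background). With block medians set to 0, which also moves the median of all genes, the medians of the 3 lists were 0.03, 0.04 and 0.03. At 6 h the medians of the 3 lists were -0.02, -0.04 and -0.01.

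Chromatin and nuclear lists gave single genes too. In the NuRD and chromatin list (16 genes, median 0.07) Mta2 and Smyd5 were higher and Rbbp7, a histone-binding subunit, lower at -0.33, beside 0.678% and 2.24% of all genes. With block medians set to 0 the list median was 0.01 and Rbbp7 was at -0.29, no longer called, and with the local background Rbbp7 was at -0.05. Of 27 replication-dependent histone genes (median -0.04) 3 were lower: H2bc4 at -0.35, and H3c11 and H3c1 (-0.32), both with a bright neighbour, beside 2.24% of all genes. H2bc4 lies in block 24, and with block medians set to 0 it was at -0.19 and H3c1 at -0.32, just inside the bound, so that H3c11 alone stayed called. Their near-identical copies make the gene behind a histone probe uncertain. In the RNA-binding list (14 genes, median -0.06) Hnrnpa2b1, a splicing factor, was lower at -0.35 and Srsf3 was at -0.24. Hnrnpa2b1 was the only call of that list, and it was at -0.28 with block medians set to 0 and at -0.31 with the local background, called in neither. Of 25 mitosis genes Tpx2, a spindle assembly factor, was higher at 0.33 (0.28 with block medians set to 0 and -0.62 with the local background), and of 24 actin genes (median 0.00) Actb and Lcp1 were higher. Over all 47 lists, 741 distinct genes were measured, of which 11 (1.48%) were higher and 21 (2.83%) lower, beside 0.678% and 2.24% of all genes. Both with block medians set to 0 and with the local background, 4 of the 11 and 5 of the 21 were called the same way.

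**Figure D4:**
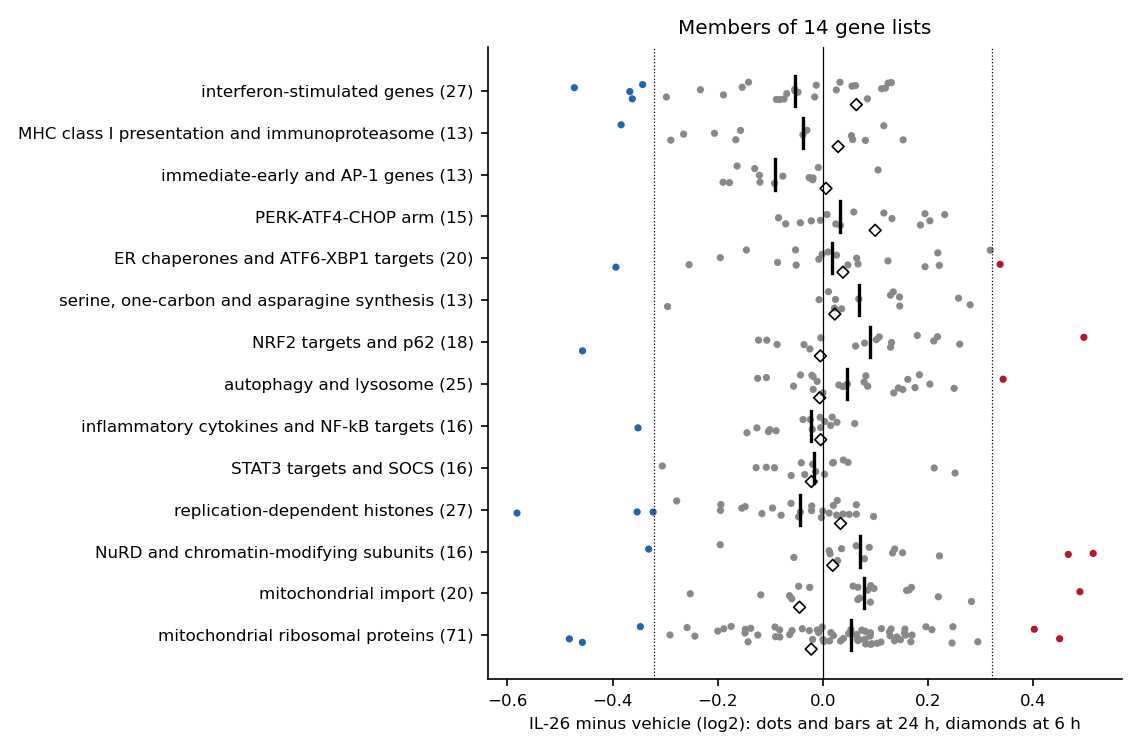
Log2 difference between IL-26 and vehicle at 24 h (x axis) for each measured member of 14 gene lists, with the number of members in brackets, the list median at 24 h as a bar and the list median at 6 h as a diamond. Red and blue dots are called higher or lower (dotted lines at 0.32 and -0.32), and every bar lies between -0.09 and 0.09.

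The 6 h and 24 h comparisons had little in common. Across the 8107 genes the Pearson r was -0.09 and the Spearman rho -0.10, from arrays that are not shared. Of the 55 genes higher at 24 h, 27 were above 0 at 6 h, beside 48.1% of all genes. There 1 of them was called higher and 1 lower, beside 1.13% and 0.555% of all genes. Of the 182 lower, 62 were below 0 at 6 h and 120 above, beside 48.1% of all genes above 0. There 4 of them were called lower and 4 higher, beside 0.555% and 1.13% of all genes. The gene higher at both times was Lin7c, a scaffold protein of cell junctions (0.33 at 6 h and 0.36 at 24 h). The lower ones were Cbx7, a Polycomb protein (-0.36 and -0.33), Grina (-0.54 and -0.34), Pdcl3 (-0.34 at both) and H3c11 (-0.36 and -0.58). Cbx7, Grina and Pdcl3 all lie in block 13. In all, 5 genes were called in opposite directions at the 2 times: Vat1, Rsad2, Psmb8, Ube2s (0.36 at 6 h and -0.36 at 24 h), a ubiquitin-conjugating enzyme of mitotic exit, and H3c1 (0.36 and -0.32).

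**Figure D5:**
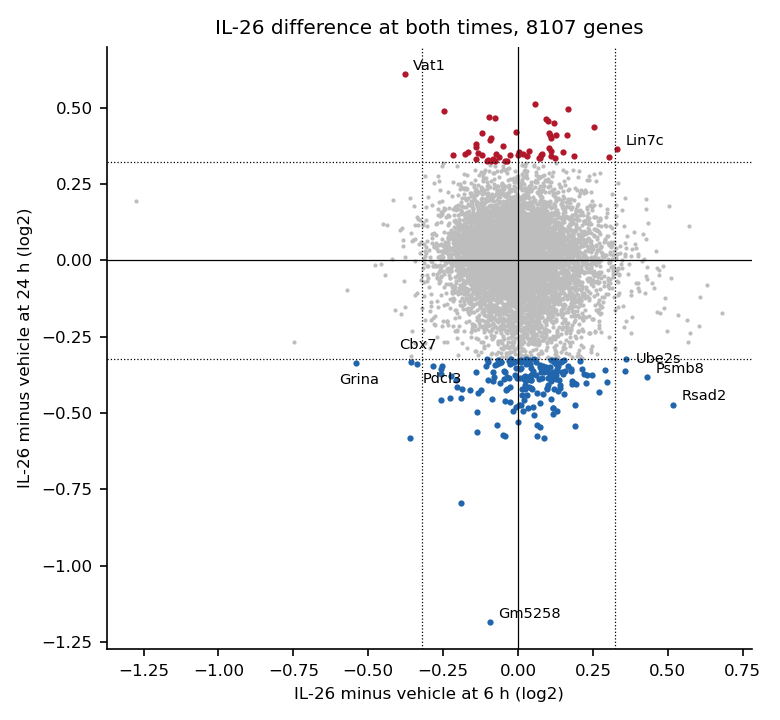
Log2 difference between IL-26 and vehicle at 6 h (x axis) and at 24 h (y axis) for 8107 genes, with dotted lines at 0.32 and -0.32 and the genes called at 24 h in red and blue. The points form a round cloud (Pearson r -0.09), with Lin7c past the lines at the upper right and Rsad2, Psmb8 and Ube2s at the lower right.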

How the data were processed

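Total RNA of the E0771 cells was amplified, labelled with Cy5 and hybridised by the authors to 3D-Gene mouse chips. The deposited scanner tables hold the intensity of each spot (the median of its pixels in the Cy5 channel) and a local background intensity. The deposited value table holds intensities with the blank level subtracted, scaled to one median, and was used as an alternative. For each spot the background was removed by normexp, fitted on the blank spots (limma 3.58.1 in R 4.3.3, offset 50), and values were log2 transformed and quantile normalized over the 4 arrays. The offset draws differences towards 0, most for dim genes. A gene was the mean over its probes at least 2 times the blank mean on both 24 h arrays; symbols came from RefSeq gene IDs for 20556 of 20690 named probes. No p-value was computed, since each group had 1 array, and the number of arrays limits the precision. The steps were tested on simulated data with planted 2-fold changes and no trend across blocks, which does not show how reliable the smaller differences called here are.

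Genes named were Cxcl1, Cxcl2 and Il6, the stress factors Atf3, Atf4 and Ddit3, the receptors Epha3, Il20ra and Il10rb, the 12 highest and 12 lowest without a spot over 10000 among the 8 surrounding positions, and the 3 largest differences of each of 47 lists. Genes outside this rule (Ifi47, Mrpl11, Mrpl43, Id2, Id3, Socs3, Srf, the genes called at both times, Stmn1, Glipr2, Cd47, Tspo, Max and other list members) were named after their values were seen, as was Cd14. Members and lists were chosen with earlier results of these data known. The promoter motif was chosen after the differences were seen and is a shortened form of a longer one searched first. Alternatives were other offsets, normalizations, backgrounds, limits, probe summaries and folds, block medians set to 0, and the authors' values.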

Additional observations from a re-analysis of the deposited data

Results flagged for a closer look

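Rsad2, Psmb8 and Vat1 differed in opposite directions at 6 h and 24 h. Rsad2 was at 0.52 at 6 h and -0.47 at 24 h, Psmb8 at 0.43 and -0.38, and Vat1 at -0.38 and 0.61, each on 1 array a side. The difference between the times was not tested. With the local background in place of the blank spots, Psmb8 (0.12) and Vat1 (-0.21) changed sign at 24 h, and Rsad2 was at -0.87. With block medians set to 0 Rsad2, which lies in block 24, was at -0.31 at 24 h and no longer called. Psmb8 (-0.39) and Vat1 (0.58) stayed called in that setting. The 6 h differences were not recomputed with block medians set to 0.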

How the results depend on the processing

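No paired analysis was possible because each group had 1 array, and for the same reason no replicate could be left out. The counts of genes called higher and lower at 24 h, 55 and 182, were 137 and 298 with no offset, 89 higher with an offset of 16, 132 and 310 with the authors' values, 22 and 299 with median scaling, 110 lower with block medians set to 0, and 2049 and 2270 with the local background. With bounds at 15% higher and 13% lower they were 393 and 602, and at 1.5-fold 1 and 2. Median scaling thus raised the share of lower genes among those called. Under the 7 other ways of scaling, 20 of the 55 and 93 of the 182 stayed past the bounds, and 8 and 52 did so with the local background as well, Mta2, Sqstm1, Actb, Gm5258, Id1 and Malat1 among them. With the local background 5 of the 55 and 23 of the 182 changed sign. Of the named genes, Vat1 (-0.21), Psmb8 (0.12), Hmox1 (0.87), Psmd14 (0.38) and Tpx2 (-0.62) did so, and the cause was not tested. Across 144 named genes 1843 of 1996 alternative values stayed close to the main one, 148 moved, 110 of them with the local background, and 5 reversed. Alternatives that changed only the limit or the choice of probes left a gene with 1 probe at its main value by construction. The share that stayed close therefore overstates how stable the values were. The number of arrays limits the precision, and genes whose spots lay under 113.0 (vehicle) or 103.9 (IL-26) were not compared.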
